A study of Rattus norvegicus with 9 samples.

Results

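The 10 genes described here encode parts of the angiotensin, endothelin and adrenomedullin systems: Agt, Ace, Agtr1a and Agtrap, then Edn1, Ednra and Ednrb, then Adm, Adm2 and Calcrl. They were picked by gene symbol, with measured values of these libraries already known, and all 10 of the 14607 genes listed in any library were found. The cells were primary neonatal rat cardiomyocytes per the titles (NRCMs). The cultures were made from the hearts of newborn Sprague Dawley rats that carried no engineered allele, 1 to 2 days old per the labels. The lenti-TCF7L2 group received a lentivirus carrying TCF7L2, marked WT in the titles. TCF7L2 is a transcription factor of the Wnt pathway that binds DNA together with beta-catenin. The lenti-shTCF7L2 group received a lentivirus carrying a short hairpin against it, and the lenti-NC group received the vector control. All groups were exposed to virus for 16 h and then cultured for 48 h in medium with serum, so the controls were infected cells too, and each group has 3 libraries of oligo(dT)-selected RNA. The labels give neither the promoter nor the species of the TCF7L2 insert, and they do not say how many animals or cultures stand behind a library, so p-values measure the spread between these libraries only.

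All 3 systems regulate blood vessel tone and act on heart muscle and fibroblasts. Angiotensinogen is cut in steps, the last by angiotensin-converting enzyme, to angiotensin II, which raises pressure and promotes growth of heart cells through its type 1 receptor. Endothelin 1 is a constrictor peptide cut from a larger precursor by endothelin-converting enzymes. It acts through receptor A, which constricts vessels and promotes growth, and through receptor B, which in endothelium drives nitric oxide release and clears the peptide. Adrenomedullin and its relative intermedin, the product of Adm2, dilate vessels through the calcitonin receptor-like receptor, which needs a receptor activity-modifying protein (RAMP) as a partner to reach the cell surface and to set its ligand preference.

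The proximal promoters of 9 of the 10 members were found by symbol in RefSeq sequences of build GRCr8, and 5 are shown as examples. Agtr1a and Adm were highest with lenti-TCF7L2 and lowest with lenti-shTCF7L2, and Edn1 was low with the hairpin. Adm2 was higher with both viruses, and the groups of Calcrl overlapped. The promoters of Ace, Agtrap, Ednra and Ednrb are not printed. Each line is the 250 bases before the annotated start on the gene's own strand. Agtr1a lies at chr17:34435433-34435682 on the minus strand, Edn1 at chr17:22666688-22666937 on the minus strand, Adm at chr1:174179950-174180199 on the plus strand, Adm2 at chr7:122272558-122272807 on the plus strand and Calcrl at chr3:89932617-89932866 on the minus strand. Capitals mark matches to the 6 motifs searched on both strands: TCF/LEF, the motif of TCF7L2 itself (CTTTGAA or CTTTGAT), hypoxia-inducible factor (HIF; ACGTG or GCGTG), AP-1 (TGACTCA), the GATA factor family (AGATAA), the TATA box (TATAAA) and ATF4 (TGATGNAA).
Agtr1a: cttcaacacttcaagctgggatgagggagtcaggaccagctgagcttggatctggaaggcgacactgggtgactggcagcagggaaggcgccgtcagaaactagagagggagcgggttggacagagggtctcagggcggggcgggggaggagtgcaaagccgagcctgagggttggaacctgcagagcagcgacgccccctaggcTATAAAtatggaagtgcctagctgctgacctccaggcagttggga
Edn1: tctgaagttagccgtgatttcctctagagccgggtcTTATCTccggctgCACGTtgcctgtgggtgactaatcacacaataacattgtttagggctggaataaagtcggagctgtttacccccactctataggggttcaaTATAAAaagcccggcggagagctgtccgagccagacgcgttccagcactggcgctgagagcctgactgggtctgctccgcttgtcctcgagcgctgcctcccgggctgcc
Adm: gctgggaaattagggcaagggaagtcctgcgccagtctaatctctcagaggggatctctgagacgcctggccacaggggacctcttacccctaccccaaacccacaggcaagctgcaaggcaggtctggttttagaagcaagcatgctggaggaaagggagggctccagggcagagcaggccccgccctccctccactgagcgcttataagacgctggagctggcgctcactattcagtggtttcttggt
Adm2: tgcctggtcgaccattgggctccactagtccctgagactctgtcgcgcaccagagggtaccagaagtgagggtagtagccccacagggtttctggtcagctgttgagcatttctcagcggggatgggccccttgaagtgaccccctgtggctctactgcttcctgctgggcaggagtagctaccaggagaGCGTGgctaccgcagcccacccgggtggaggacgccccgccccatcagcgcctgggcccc
Calcrl: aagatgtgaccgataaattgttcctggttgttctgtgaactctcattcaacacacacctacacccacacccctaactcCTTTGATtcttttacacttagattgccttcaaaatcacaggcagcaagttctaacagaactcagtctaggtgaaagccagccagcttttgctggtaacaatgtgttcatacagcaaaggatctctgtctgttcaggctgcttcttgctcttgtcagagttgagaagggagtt

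The motif letters and the genes shown were chosen with the expression values known, and a match is a description of the letters, not a binding site. The TCF/LEF letters were in 1 of the 9 member promoters, that of Calcrl at bases 172 to 166 before the start, and in 7.58% of all 33469 rat promoters of this length. The HIF letters were in 5 of 9, namely Agtrap, Edn1, Ednra, Ednrb and Adm2, against 36.7% of all promoters. The TATA letters were in 3, namely Ace at bases 42 to 37, Agtr1a at bases 45 to 40 and Edn1 at bases 110 to 105, against 12.9%. The GATA letters were in Edn1 only, at bases 214 to 209, against 10.3%, and the AP-1 and ATF4 letters were in none of the 9, against 4.05% and 3.40%. In the printed Adm promoter no motif of the 6 was found, and Adm2 has HIF letters at bases 60 to 56.

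The libraries held 15085922 to 16478295 expected counts (the fragments that the authors' counting assigned to a gene), so 3 counts, taken as the floor of detection, equal 0.182 to 0.199 CPM (counts scaled to library size). Of the listed genes, 11761 passed the filter on low counts, all 10 members among them. Tcf7l2 had 2251, 3240 and 1434 counts in the lenti-TCF7L2 libraries, 388, 465 and 391 in the lenti-shTCF7L2 libraries and 595, 540 and 510 in the lenti-NC libraries. Its log2 difference was 1.97 ± 0.27 (SE) for lenti-TCF7L2 against lenti-NC, with an adjusted p of 8.46e-04 from edgeR's quasi-likelihood test with Benjamini-Hochberg adjustment. For lenti-shTCF7L2 against lenti-NC it was -0.43 ± 0.27 with an adjusted p of 0.511 in the same test, although the groups did not overlap; without lenti-TCF7L2 replicate 3 that adjusted p was 0.0285. The lenti-TCF7L2 library of replicate 3 stands apart: its genes of at most 1000 bases had a median log2 difference of 0.49 from the lenti-NC mean, against 0.14 and -0.07 in replicates 1 and 2, and its genes above 4000 bases one of -0.56, against -0.17 and 0.04. Where leaving this library out changes a call or moves a value much, that is given for many of the genes named, not for all. In bulk cultures fewer cells of a type and less RNA per cell cannot be told apart.

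Marker genes place these cultures among mixed heart cells. All 10 cardiomyocyte markers were listed in the libraries, and their summed level was 21696, 21205 and 24422 CPM with lenti-TCF7L2, 43450, 41604 and 42930 CPM with lenti-shTCF7L2 and 45766, 48206 and 48136 CPM with lenti-NC. Fibroblast markers summed to 37355 to 44942 CPM with lenti-TCF7L2, 37802 to 39800 CPM with lenti-shTCF7L2 and 34760 to 35939 CPM with lenti-NC, so both lists were abundant in every library. Endothelial markers were far lower, at 175 to 252 CPM, 90.7 to 91.8 CPM and 86.9 to 110.0 CPM in the same order of groups. With lenti-TCF7L2 against lenti-NC, 9 of 10 cardiomyocyte markers were called lower and 9 of 10 endothelial markers higher, as were 4 of 10 fibroblast markers, with 2 lower. With lenti-shTCF7L2 against lenti-NC, 3 fibroblast markers were called lower and none of the cardiomyocyte or endothelial markers were called. Smooth muscle and pericyte markers summed to 8417 to 9610 CPM with lenti-TCF7L2, 9407 to 9702 CPM with lenti-shTCF7L2 and 9738 to 9968 CPM with lenti-NC, and macrophage markers to 71.3 to 77.9 CPM, 36.2 to 39.2 CPM and 38.0 to 40.4 CPM in the same order, with C1qa, C1qb and Cd163 at 0 in some libraries. The part of these markers in the differences of the members was not tested.

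The members spanned a wide range of abundance. Compared per length, as FPKM (fragment counts divided by gene length and library size), the lenti-NC order was Adm at 81.0 ± 6.07 (SD, n = 3), Agtr1a at 69.2 ± 9.30, Edn1 at 33.8 ± 5.38, Ednra at 23.8 ± 0.488, Agtrap at 14.9 ± 0.456, Agt at 11.8 ± 1.79, Ace at 4.42 ± 0.490, Calcrl at 3.12 ± 0.0889, Ednrb at 2.77 ± 0.560 and Adm2 at 1.33 ± 0.252. The neighbours Adm and Agtr1a overlapped in their libraries, as did Calcrl and Ednrb. With lenti-TCF7L2 the first 3 places were the same, with Adm at 146 FPKM, Agtr1a at 122 FPKM and Edn1 at 42.4 FPKM, while Agt stood 4th at 32.4 FPKM. Ednra then stood at 13.5 FPKM and Calcrl was last at 2.63 FPKM. With lenti-shTCF7L2, Adm at 39.9 FPKM and Agtr1a at 38.5 FPKM again led, Agt stood at 5.29 FPKM, Adm2 at 4.25 FPKM, Ace at 3.38 FPKM and Ednrb was last at 2.59 FPKM.

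**Figure D1:**
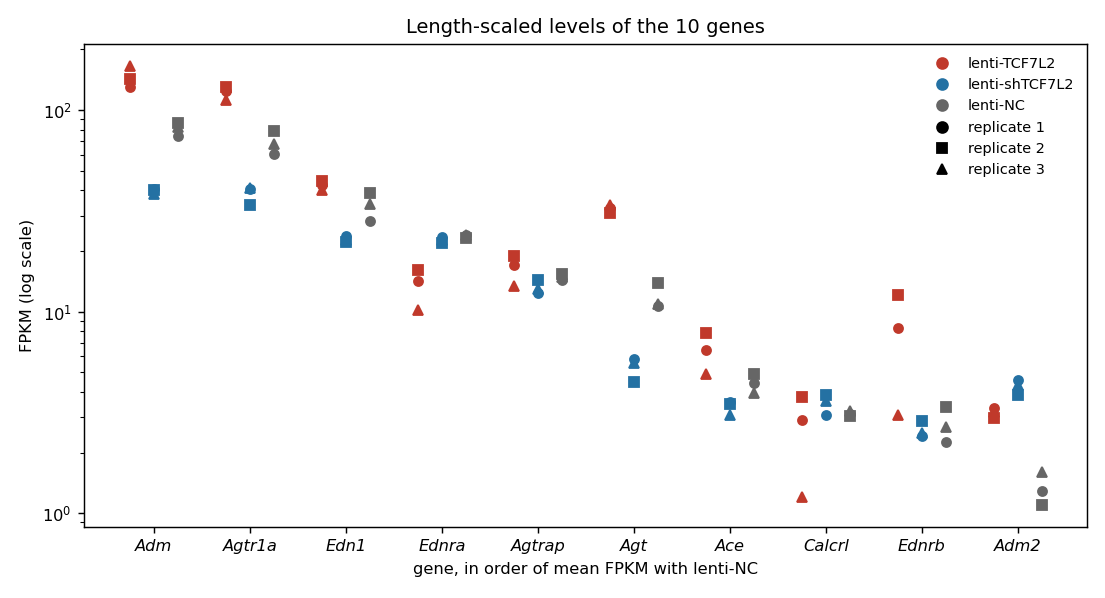
Level of each of the 10 members per length, in FPKM on a log axis, 1 point per library (circle, square and triangle for replicates 1, 2 and 3), with the lenti-TCF7L2, lenti-shTCF7L2 and lenti-NC groups in different colours. Adm and Agtr1a lead in all 3 groups, and the 3 groups stand widest apart for Agt, at 32.4 FPKM with lenti-TCF7L2, 5.29 FPKM with lenti-shTCF7L2 and 11.8 FPKM with lenti-NC.

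In the angiotensin system, the ligand precursor and the main receptor were highest with lenti-TCF7L2 and lowest with lenti-shTCF7L2, whereas the converting enzyme and the receptor's partner differed less. Agt, which encodes angiotensinogen (gene identifier 24179), had 62.9, 59.2 and 65.4 CPM in the lenti-TCF7L2 libraries, 11.4, 8.74 and 11.0 CPM in the lenti-shTCF7L2 libraries and 21.3, 27.8 and 21.8 CPM in the lenti-NC libraries. No group overlapped another, and of all 10 members Agt differed most between lenti-TCF7L2 and lenti-shTCF7L2. Its log2 difference was 1.40 ± 0.13 for lenti-TCF7L2 against lenti-NC, a 2.64-fold higher level, and -1.19 ± 0.14 for lenti-shTCF7L2 against lenti-NC, a 2.28-fold lower level. Between lenti-TCF7L2 and lenti-shTCF7L2 it was 2.59 ± 0.14, or 6.04-fold.

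Agtr1a, the type 1 angiotensin receptor (24180), had 270.5, 283.3 and 245.9 CPM in the lenti-TCF7L2 libraries, 90.2, 74.2 and 90.8 CPM in the lenti-shTCF7L2 libraries and 136.7, 178.6 and 153.1 CPM in the lenti-NC libraries. The 3 groups were again separate. The log2 difference was 0.77 ± 0.12 (1.71-fold) for lenti-TCF7L2 and -0.88 ± 0.12 (1.84-fold lower) for lenti-shTCF7L2, each against lenti-NC, and 1.65 ± 0.12 between both. Agtr1b, the second rodent type 1 receptor and a near-identical copy, was listed with 1.08 counts in 1 lenti-shTCF7L2 library and at 0 in the other libraries. Reads shared by such copies can be split between them, so the Agtr1a level is uncertain by what the counting moved.

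Ace, the angiotensin-converting enzyme (24310), had 26.7, 32.3 and 20.4 CPM in the lenti-TCF7L2 libraries, 15.0, 14.5 and 12.9 CPM in the lenti-shTCF7L2 libraries and 18.8, 21.0 and 16.8 CPM in the lenti-NC libraries. The lenti-TCF7L2 and lenti-NC libraries overlapped, and the lenti-shTCF7L2 libraries lay below all others. The log2 difference against lenti-NC was 0.49 ± 0.17 for lenti-TCF7L2, or 0.63 without its replicate 3 and 0.31 without its replicate 2, and -0.42 ± 0.17 for lenti-shTCF7L2. Agtrap, whose protein binds the type 1 receptor and promotes its internalisation (298646), had 36.7, 40.6 and 28.9 CPM in the lenti-TCF7L2 libraries, 27.1, 31.0 and 28.4 CPM in the lenti-shTCF7L2 libraries and 32.1, 34.2 and 33.0 CPM in the lenti-NC libraries. It was the flattest gene of this system, with log2 differences of 0.10 ± 0.12 and -0.20 ± 0.12 for lenti-TCF7L2 and lenti-shTCF7L2 against lenti-NC. The first of these was 0.21 without lenti-TCF7L2 replicate 3 and -0.02 without replicate 2.

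The FPKM ratio of the receptor Agtr1a to its partner Agtrap was 7.27, 6.88 and 8.41 with lenti-TCF7L2, 3.28, 2.36 and 3.15 with lenti-shTCF7L2 and 4.21, 5.16 and 4.57 with lenti-NC. The ratio of Agt to Ace was 5.03, 3.91 and 6.85 with lenti-TCF7L2, 1.62, 1.29 and 1.82 with lenti-shTCF7L2 and 2.42, 2.83 and 2.78 with lenti-NC. In both ratios the 3 groups were separate, in the order lenti-TCF7L2, lenti-NC, lenti-shTCF7L2.

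**Figure D2:**
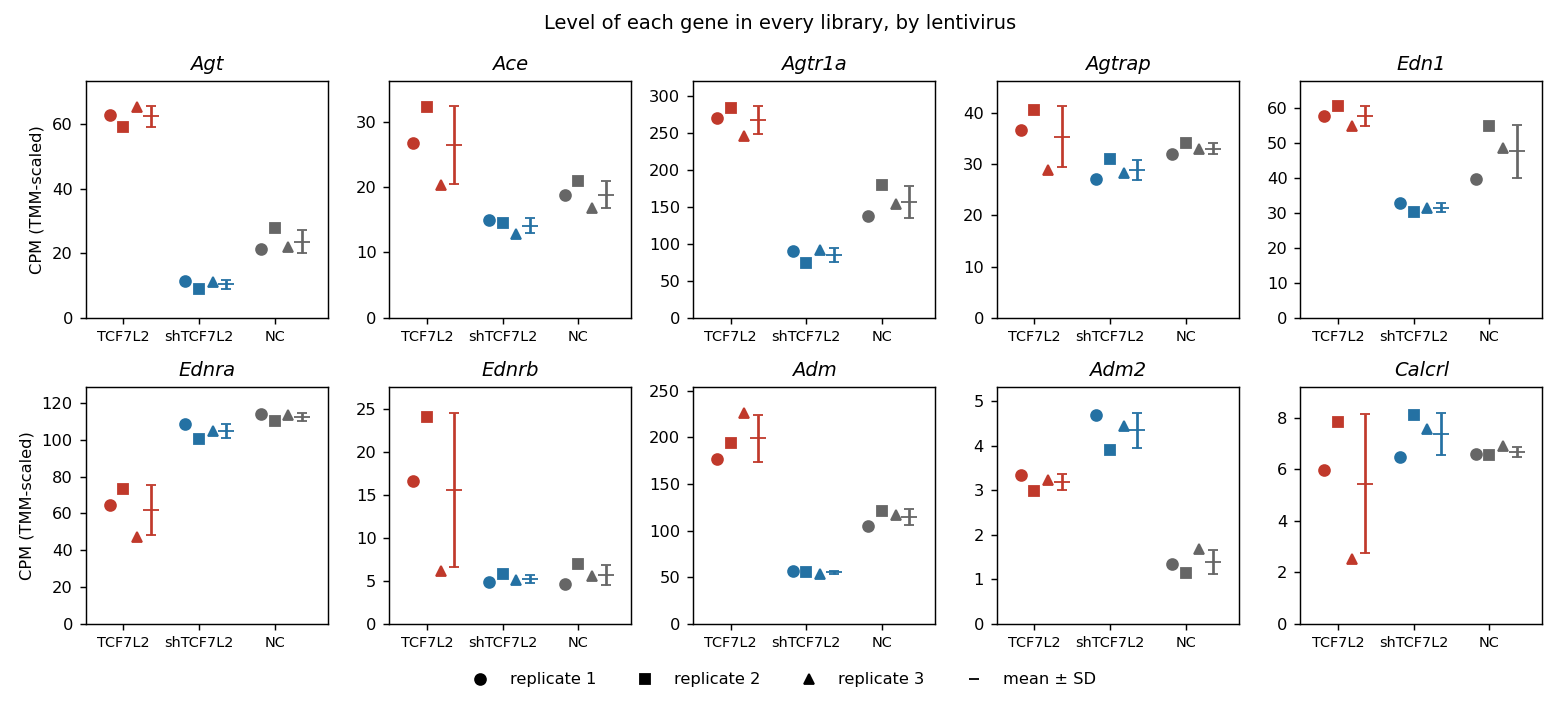
CPM of each of the 10 members in each of the 9 libraries, 1 panel per gene, with lenti-TCF7L2 left, lenti-shTCF7L2 in the middle and lenti-NC right; points are libraries, and the bar with its whiskers is the mean ± SD over 3 libraries. Agt, Agtr1a and Adm show 3 separate levels, Ednra is low with lenti-TCF7L2 (61.7 CPM on average), and Adm2 is low with lenti-NC (1.39 CPM on average).

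The other genes of the angiotensin system were tested in the same fit, adjusted over all 11761 genes. Of 26 in the list, 24 were listed and 16 tested. With lenti-TCF7L2 against lenti-NC, 7 rose and 2 fell, against 18.0% and 13.8% of all tested genes, and the median log2 difference was 0.21, against 0.03 over all tested genes. Without lenti-TCF7L2 replicate 3, 39 of the 56 related genes over all lists were called in this comparison, against 26 with it. Of all genes, 5043 were called without that library, against 3741 with it. Of the peptidases that trim or degrade angiotensin peptides, 4 rose: aminopeptidase N (Anpep) by 0.77 ± 0.08 (edgeR adjusted p = 2.60e-04), neprilysin (Mme) by 0.79 ± 0.13 (edgeR adjusted p = 0.00245), thimet oligopeptidase (Thop1) by 0.64 ± 0.12 (edgeR adjusted p = 0.0046) and prolylcarboxypeptidase (Prcp) by 0.38 ± 0.08 (edgeR adjusted p = 0.00885). Others did not pass: the aminopeptidases Enpep and Rnpep differed by 0.15 ± 0.12 and 0.24 ± 0.09, neurolysin (Nln) by 0.06 ± 0.09, and Prep and Lnpep by -0.26 ± 0.11 and -1.31 ± 0.58, with edgeR adjusted p = 0.337, 0.0749, 0.625, 0.102 and 0.115 in that order. When lenti-TCF7L2 replicate 3 was left out, Lnpep was called lower, at -0.82 (adjusted p = 3.04e-04), and Enpep higher, at 0.26 (adjusted p = 0.00316). The bradykinin receptors Bdkrb1 and Bdkrb2 rose by 0.98 ± 0.18 and 0.63 ± 0.10 (edgeR adjusted p = 0.00365 and 0.00157). The kininogen gene Kng1 was called too (edgeR adjusted p = 0.00578), with 13.3, 19.3 and 28.6 counts with lenti-TCF7L2, 1.46, 0 and 2 with lenti-shTCF7L2 and 1.53, 4.73 and 2.74 with lenti-NC. Its near-identical copy Kng2 can share its reads, so its value is uncertain.

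The mineralocorticoid receptor Nr3c2, which binds aldosterone, fell with lenti-TCF7L2. It had 12.5, 14.7 and 7.47 CPM in these libraries, 22.8, 22.0 and 22.4 CPM with lenti-shTCF7L2 and 30.3, 25.9 and 26.1 CPM with lenti-NC. The log2 difference for lenti-TCF7L2 against lenti-NC was -1.25 ± 0.21 (edgeR adjusted p = 0.00229), or -1.03 without replicate 3. Atp6ap2, an accessory subunit of the vacuolar proton pump, fell by 0.26 ± 0.07 (edgeR adjusted p = 0.0278), a call lost when any 1 lenti-NC library was left out (adjusted p = 0.0776 to 0.0852).

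With lenti-shTCF7L2 against lenti-NC, Mme and Anpep were the only genes of the 56 tested over all lists that were called, both lower, with 6 higher and 6 lower at an unadjusted p under 0.05. DESeq2 and limma also called these 2 and no other gene of the lists, so both counted 0 in the endothelin, adrenomedullin and signalling lists. All genes called by edgeR in this comparison numbered 428, or 2056 without lenti-TCF7L2 replicate 3. Without that library, 16 of the 56 were called by edgeR. Among them Ramp3, Bdkrb2 and Thop1 were higher, at 0.53, 0.32 and 0.34 (edgeR adjusted p = 0.00111, 0.0228 and 0.0161). Prcp, Nr3c2 and Pcsk5 among them were lower, at -0.30, -0.31 and -0.35 (edgeR adjusted p = 0.0198, 0.0238 and 0.0489). Mme had 11.0, 12.3 and 11.0 CPM with lenti-shTCF7L2 and 24.1, 26.9 and 24.5 CPM with lenti-NC, a log2 difference of -1.14 ± 0.14 (edgeR adjusted p = 0.00411). With lenti-TCF7L2 it had 37.8, 52.7 and 39.7 CPM, so its groups were ordered as those of Agt. Anpep had 84.5, 84.4 and 86.3 CPM with lenti-shTCF7L2 and 113.8, 120.1 and 109.4 CPM with lenti-NC, a log2 difference of -0.43 ± 0.08 (edgeR adjusted p = 0.0223). That call was lost when any 1 of these 6 libraries was left out (adjusted p = 0.0737 to 0.118).

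The type 2 receptor Agtr2 had 6, 4 and 3 counts with lenti-TCF7L2, 2, 1 and 2 with lenti-shTCF7L2 and 1, 3 and 3 with lenti-NC. At this depth a difference in this gene was not detectable.

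In the endothelin system the ligand and the receptors behaved differently: the ligand was lower with the hairpin, and the balance of receptors was shifted with lenti-TCF7L2. Edn1, the endothelin 1 precursor (24323), had 57.5, 60.4 and 54.7 CPM in the lenti-TCF7L2 libraries, 32.9, 30.3 and 31.3 CPM in the lenti-shTCF7L2 libraries and 39.6, 54.8 and 48.4 CPM in the lenti-NC libraries. The lenti-shTCF7L2 libraries lay below all others, and the lenti-TCF7L2 and lenti-NC libraries overlapped, though the lowest of the first (54.73 CPM) and the highest of the second (54.77 CPM) nearly met. The log2 difference was -0.60 ± 0.12 (1.51-fold lower) for lenti-shTCF7L2 against lenti-NC and 0.27 ± 0.11 for lenti-TCF7L2 against lenti-NC. The second value was 0.16 without lenti-NC replicate 1 and 0.15 after adjustment for gene length.

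Ednra, receptor A (24326), had 64.7, 73.5 and 47.0 CPM in the lenti-TCF7L2 libraries, 108.6, 100.7 and 105.0 CPM in the lenti-shTCF7L2 libraries and 114.2, 110.1 and 113.6 CPM in the lenti-NC libraries. All lenti-TCF7L2 libraries were below all others, with a log2 difference of -0.87 ± 0.14 (1.82-fold lower) against lenti-NC. It was -0.72 without replicate 3 and likewise after adjustment for length, Ednra being the longest member at 4595 bases. The lenti-shTCF7L2 libraries were also all below the lenti-NC libraries, by -0.10 ± 0.14.

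Ednrb, receptor B (50672), had 16.6, 24.0 and 6.15 CPM in the lenti-TCF7L2 libraries, 4.88, 5.74 and 5.04 CPM in the lenti-shTCF7L2 libraries and 4.64, 6.94 and 5.55 CPM in the lenti-NC libraries. Replicates 1 and 2 of lenti-TCF7L2 were above every other library, and replicate 3 lay inside the lenti-NC range. The log2 difference against lenti-NC was 1.44 ± 0.41 (2.72-fold), or 1.81 without replicate 3, and it was the least even of the members' differences within a group. For lenti-shTCF7L2 against lenti-NC it was -0.13 ± 0.43. The fit shares a single spread per gene over all groups, so this SE also holds the uneven lenti-TCF7L2 libraries. The FPKM ratio of Ednra to Ednrb was 1.70, 1.33 and 3.32 with lenti-TCF7L2, 9.66, 7.64 and 9.06 with lenti-shTCF7L2 and 10.7, 6.89 and 8.91 with lenti-NC, so receptor A exceeded receptor B in every library, by less with lenti-TCF7L2.

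Endothelial markers were not even in the lenti-TCF7L2 libraries either. Cdh5, the cadherin of endothelial junctions, had 23.4, 44.7 and 13.6 CPM in replicates 1, 2 and 3, lowest in replicate 3 as Ednrb was. Tek, Vwf and Kdr were lowest in replicate 3 too. Tek had 9.58, 11.5 and 8.37 CPM, Vwf 4.73, 8.96 and 3.94 CPM and Kdr 28.9, 46.3 and 28.6 CPM. Pecam1, an adhesion molecule of endothelium, had 33.5, 51.2 and 55.6 CPM and was highest in replicate 3, as were Tie1, Emcn, Cldn5, Egfl7 and Esam. The summed endothelial markers were 175, 252 and 235 CPM. The part of these markers in the Ednrb values was not tested.

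Of 11 other endothelin genes, 9 were listed and 6 tested. With lenti-TCF7L2 against lenti-NC, 2 of the 6 rose and 1 fell, where 18.0% and 13.8% of all tested genes did, with a median log2 difference of 0.08. Ece2, an endothelin-converting enzyme, had 11.3, 10.2 and 11.4 CPM with lenti-TCF7L2, 3.83, 3.20 and 4.51 CPM with lenti-shTCF7L2 and 3.57, 5.39 and 5.08 CPM with lenti-NC, a log2 difference of 1.23 ± 0.18 against lenti-NC (edgeR adjusted p = 0.00111). Ece1, the more abundant enzyme, had 138.8, 178.8 and 68.8 CPM with lenti-TCF7L2, 163.7, 149.9 and 150.4 CPM with lenti-shTCF7L2 and 121.3, 123.9 and 115.0 CPM with lenti-NC and was not called, at 0.10 ± 0.27 (edgeR adjusted p = 0.795). Ece1 without lenti-TCF7L2 replicate 3 was called higher with both viruses against lenti-NC, at 0.38 for lenti-TCF7L2 and 0.35 for lenti-shTCF7L2 (adjusted p = 0.00311 and 0.00881). The proprotein convertases, proteases that cut peptide precursors, differed in direction: Pcsk5 rose by 0.80 ± 0.12 (edgeR adjusted p = 0.00167) and Pcsk6 fell by 0.36 ± 0.12 (edgeR adjusted p = 0.0429). The Pcsk6 call was lost without any 1 lenti-NC or lenti-shTCF7L2 library or lenti-TCF7L2 replicate 1 (adjusted p = 0.0544 to 0.124), and its difference was -0.25 without lenti-TCF7L2 replicate 3. Edn2 had at most 2 counts in a library.

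**Figure D3:**
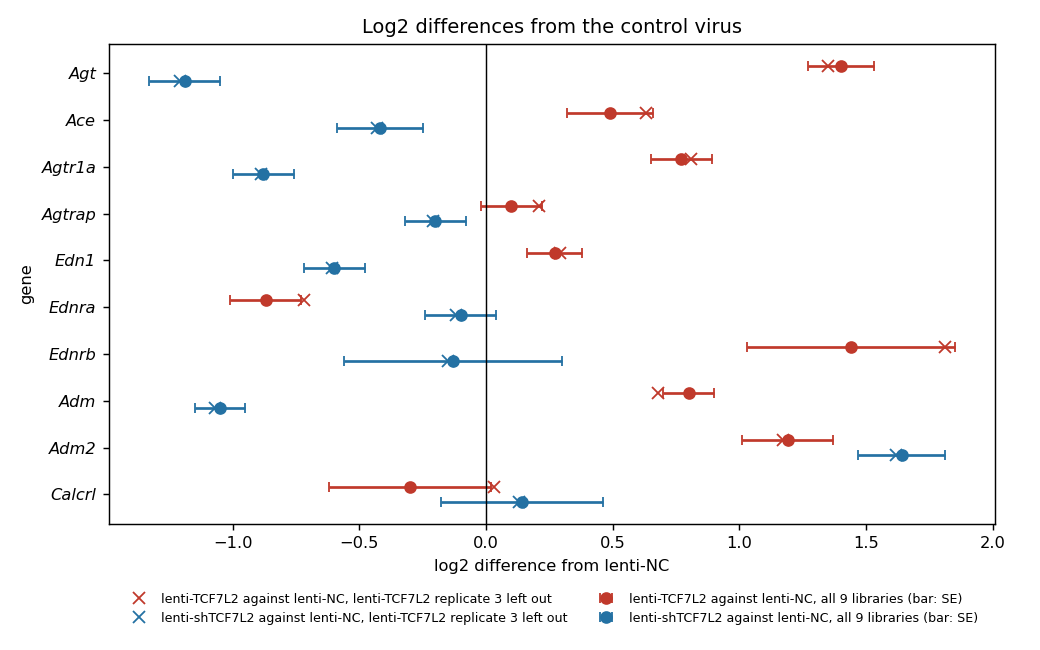
Log2 difference from lenti-NC (horizontal axis) of each of the 10 members, with lenti-TCF7L2 and lenti-shTCF7L2 in different colours; circles with bars are the value ± SE from the fit over all 9 libraries, crosses the value without lenti-TCF7L2 replicate 3, and both viruses share the lenti-NC libraries. Agt, Agtr1a and Adm lie on opposite sides of 0 for the viruses, each by more than the SE, as do Ace and Edn1 at smaller values, Adm2 lies above 0 for both (1.19 and 1.64), and the cross of Ednrb lies at 1.81, to the right of its circle at 1.44.

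In the adrenomedullin system the main ligand had 3 separate levels, and its relative was higher with both viruses. The groups overlapped for the receptor subunit, Calcrl. Adm, the adrenomedullin precursor (25026), had 177.3, 193.6 and 226.8 CPM in the lenti-TCF7L2 libraries, 56.6, 55.4 and 53.5 CPM in the lenti-shTCF7L2 libraries and 104.7, 121.5 and 116.9 CPM in the lenti-NC libraries. The groups did not overlap, and the spread within lenti-shTCF7L2 was narrow, with an SD of 1.56 CPM. The log2 difference against lenti-NC was 0.80 ± 0.10 (1.74-fold) for lenti-TCF7L2, or 0.68 without replicate 3, and -1.05 ± 0.10 (2.07-fold lower) for lenti-shTCF7L2. Between lenti-TCF7L2 and lenti-shTCF7L2 it was 1.85 ± 0.10, or 3.61-fold.

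Adm2, the intermedin precursor (399475), was the rarest member with lenti-NC, with 53, 47 and 54 counts in the lenti-TCF7L2 libraries, 71, 60 and 67 in the lenti-shTCF7L2 libraries and 20, 17 and 25 in the lenti-NC libraries. In CPM these were 3.34, 2.99 and 3.23 with lenti-TCF7L2, 4.69, 3.91 and 4.45 with lenti-shTCF7L2 and 1.35, 1.15 and 1.67 with lenti-NC. It was the only member that lay above all lenti-NC libraries with both viruses, at log2 differences of 1.19 ± 0.18 (2.29-fold) for lenti-TCF7L2 and 1.64 ± 0.17 (3.12-fold) for lenti-shTCF7L2. Both differences share the lenti-NC libraries. The FPKM ratio of Adm to Adm2 was 39.3, 48.1 and 52.0 with lenti-TCF7L2, 8.94, 10.5 and 8.90 with lenti-shTCF7L2 and 57.6, 78.2 and 51.7 with lenti-NC, so the hairpin libraries had the lowest values.

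Calcrl, the calcitonin receptor-like receptor (25029), had 5.99, 7.82 and 2.51 CPM in the lenti-TCF7L2 libraries, 6.47, 8.08 and 7.57 CPM in the lenti-shTCF7L2 libraries and 6.59, 6.54 and 6.89 CPM in the lenti-NC libraries. Replicate 3 of lenti-TCF7L2 was the lowest library, with 42 counts, and the groups overlapped. The log2 difference against lenti-NC was -0.30 ± 0.32 for lenti-TCF7L2, or 0.03 without replicate 3 and -0.66 without replicate 2, and 0.14 ± 0.32 for lenti-shTCF7L2. Both SEs come from the spread shared by all groups.

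The partners of that receptor were tested, and 2 of 3 rose with lenti-TCF7L2. Ramp3 had 50.5, 50.4 and 86.2 CPM with lenti-TCF7L2, 15.5, 15.8 and 15.3 CPM with lenti-shTCF7L2 and 10.6, 11.6 and 9.69 CPM with lenti-NC. Its log2 difference for lenti-TCF7L2 against lenti-NC was 2.55 ± 0.21 (edgeR adjusted p = 9.60e-05), or 2.23 without replicate 3. Ramp2 had 16.7, 18.9 and 28.8 CPM with lenti-TCF7L2, 8.84, 9.52 and 9.23 CPM with lenti-shTCF7L2 and 8.75, 6.33 and 7.55 CPM with lenti-NC, a log2 difference of 1.51 ± 0.21 (edgeR adjusted p = 9.64e-04), or 1.22 without replicate 3. Ramp1, which with this receptor binds the calcitonin gene-related peptide (CGRP), had 16.5, 13.3 and 18.9 CPM, 14.7, 14.2 and 13.4 CPM, and 17.8, 18.9 and 17.9 CPM in the same order of groups, and was not called (edgeR adjusted p = 0.34 for lenti-TCF7L2 and 0.179 for lenti-shTCF7L2). Ramp1 without lenti-TCF7L2 replicate 3 was called lower with both viruses, at -0.31 and -0.39 (adjusted p = 0.0334 and 0.0144).

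Per length, the ratio of Ramp3 to Calcrl was 14.5, 11.1 and 59.0 with lenti-TCF7L2, 4.12, 3.37 and 3.48 with lenti-shTCF7L2 and 2.75, 3.05 and 2.42 with lenti-NC. The ratio of Ramp2 to Calcrl was 8.03, 6.96 and 33.1 with lenti-TCF7L2, 3.94, 3.40 and 3.51 with lenti-shTCF7L2 and 3.82, 2.79 and 3.16 with lenti-NC. All lenti-TCF7L2 libraries were above all others in both ratios, and replicate 3 stood far above replicates 1 and 2. In that library Ramp2 and Ramp3 were high and Calcrl low. After adjustment for gene length, the log2 differences for lenti-TCF7L2 against lenti-NC were 1.31 for Ramp2, 2.38 for Ramp3 and -0.35 for Calcrl. The part of the shift by gene length in these ratios was not tested.

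**Figure D4:**
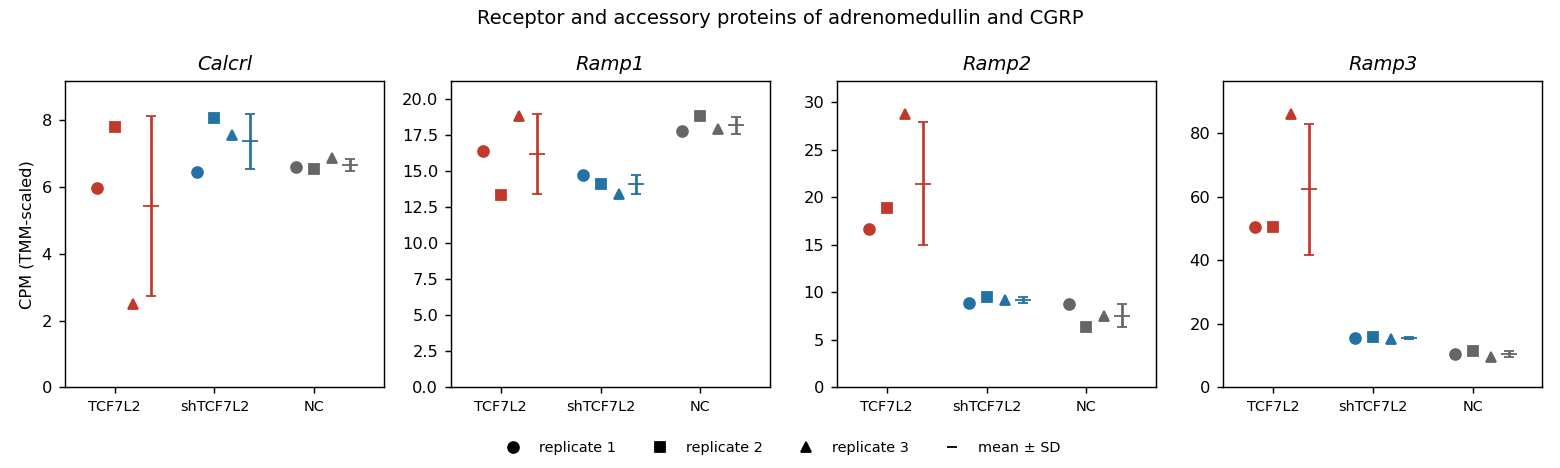
CPM of Calcrl and its partners Ramp1, Ramp2 and Ramp3 in each of the 9 libraries, 1 panel per gene, with lenti-TCF7L2 left, lenti-shTCF7L2 in the middle and lenti-NC right; points are libraries, and bars with whiskers are the mean ± SD over 3 libraries. Ramp2 and Ramp3 are above all other libraries with lenti-TCF7L2, while Calcrl averages 5.44, 7.37 and 6.67 CPM.

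Pam, the enzyme that amidates the ends of many peptide hormones, adrenomedullin among them, fell with lenti-TCF7L2. It had 1205, 1227 and 1189 CPM in these libraries, 1668, 1689 and 1727 CPM with lenti-shTCF7L2 and 1836, 1854 and 1822 CPM with lenti-NC, a log2 difference of -0.61 ± 0.06 for lenti-TCF7L2 against lenti-NC (edgeR adjusted p = 2.10e-04). Insulin-degrading enzyme (Ide) fell by 0.65 ± 0.18 (edgeR adjusted p = 0.0222), a call lost when any 1 lenti-NC library was left out (adjusted p = 0.0591 to 0.0683), and -0.46 without lenti-TCF7L2 replicate 3. Of the 12 genes in this list 8 were tested, 3 rose and 2 fell with lenti-TCF7L2 (18.0% and 13.8% of all tested genes), none was called with lenti-shTCF7L2 by edgeR, where 2 were higher and 1 lower at an unadjusted p under 0.05, and the median for lenti-TCF7L2 was -0.04.

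The receptors of these systems signal through G proteins, and all 26 genes of that shared machinery were tested. With lenti-TCF7L2 against lenti-NC and all libraries, 5 rose, 4 fell and 17 were not called, with a median log2 difference of 0. Those shares lay near the 18.0% and 13.8% of all tested genes. They depend on lenti-TCF7L2 replicate 3. Without it further genes of this list were called, some higher, Rgs4 and Rgs5 among them, and some lower. All genes called then numbered 5043, against 3741 with that library. Rgs2, which switches off Gq, the G protein that carries angiotensin and endothelin signals, had 68.2, 65.9 and 86.7 CPM with lenti-TCF7L2, 31.9, 36.7 and 35.9 CPM with lenti-shTCF7L2 and 31.4, 32.9 and 34.6 CPM with lenti-NC, a log2 difference of 1.16 ± 0.12 against lenti-NC (edgeR adjusted p = 2.06e-04). Gnai2, Plcb3 and Arrb2, an inhibitory G protein, a phospholipase and a beta-arrestin, rose by 0.45 ± 0.09, 0.48 ± 0.09 and 0.60 ± 0.12 (edgeR adjusted p = 0.00474, 0.00309 and 0.00564).

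Among the genes that fell were phospholipase Plcb4, by 0.74 ± 0.14 (edgeR adjusted p = 0.0051), and protein kinase C alpha (Prkca), by 1.03 ± 0.23 (edgeR adjusted p = 0.0103). Adenylyl cyclase Adcy5 fell by 0.81 ± 0.21 (edgeR adjusted p = 0.0166), a call lost without lenti-NC replicate 2 or 3. The receptor kinase Grk5 fell by 0.37 ± 0.11 (edgeR adjusted p = 0.0286), a call lost without lenti-NC replicate 2 or 3 or lenti-TCF7L2 replicate 1. Rgs3 rose by 0.32 ± 0.11 (edgeR adjusted p = 0.0441), a call lost under 12 of the 17 alternatives. The differences of Plcb4, Prkca and Adcy5 without lenti-TCF7L2 replicate 3 were -0.59, -0.78 and -0.59, all still called. None of the 26 was called for lenti-shTCF7L2 against lenti-NC by edgeR, with 2 higher and 0 lower at an unadjusted p under 0.05.

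Between lenti-TCF7L2 and lenti-shTCF7L2, 28 of the 56 related genes were called, 19 higher and 9 lower, where 33.1% of all tested genes were called, 18.4% higher and 14.7% lower. Their median log2 difference was 0.01. Genes called here and not against lenti-NC were the protease cathepsin D (Ctsd), higher by 0.45 ± 0.09 (edgeR adjusted p = 0.00524), and Rgs4, Rgs5 and Plcb2, higher by 0.36 ± 0.08, 0.84 ± 0.24 and 1.09 ± 0.31 (edgeR adjusted p = 0.00991, 0.0271 and 0.0247). Prolyl endopeptidase (Prep) was lower by 0.34 ± 0.11 (edgeR adjusted p = 0.0396), and by 0.22 without lenti-TCF7L2 replicate 3. The Rgs4 call was lost without lenti-shTCF7L2 replicate 2 (adjusted p = 0.0544), and those of Rgs5, Plcb2 and Prep without several libraries in turn (adjusted p up to 0.101, 0.0686 and 0.109). Without lenti-TCF7L2 replicate 3, Rgs4 and Rgs5 were called for lenti-TCF7L2 against lenti-NC too (adjusted p = 0.0246 and 1.36e-04), and Ctsd for lenti-shTCF7L2 against lenti-NC (adjusted p = 0.00538).

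**Figure D5:**
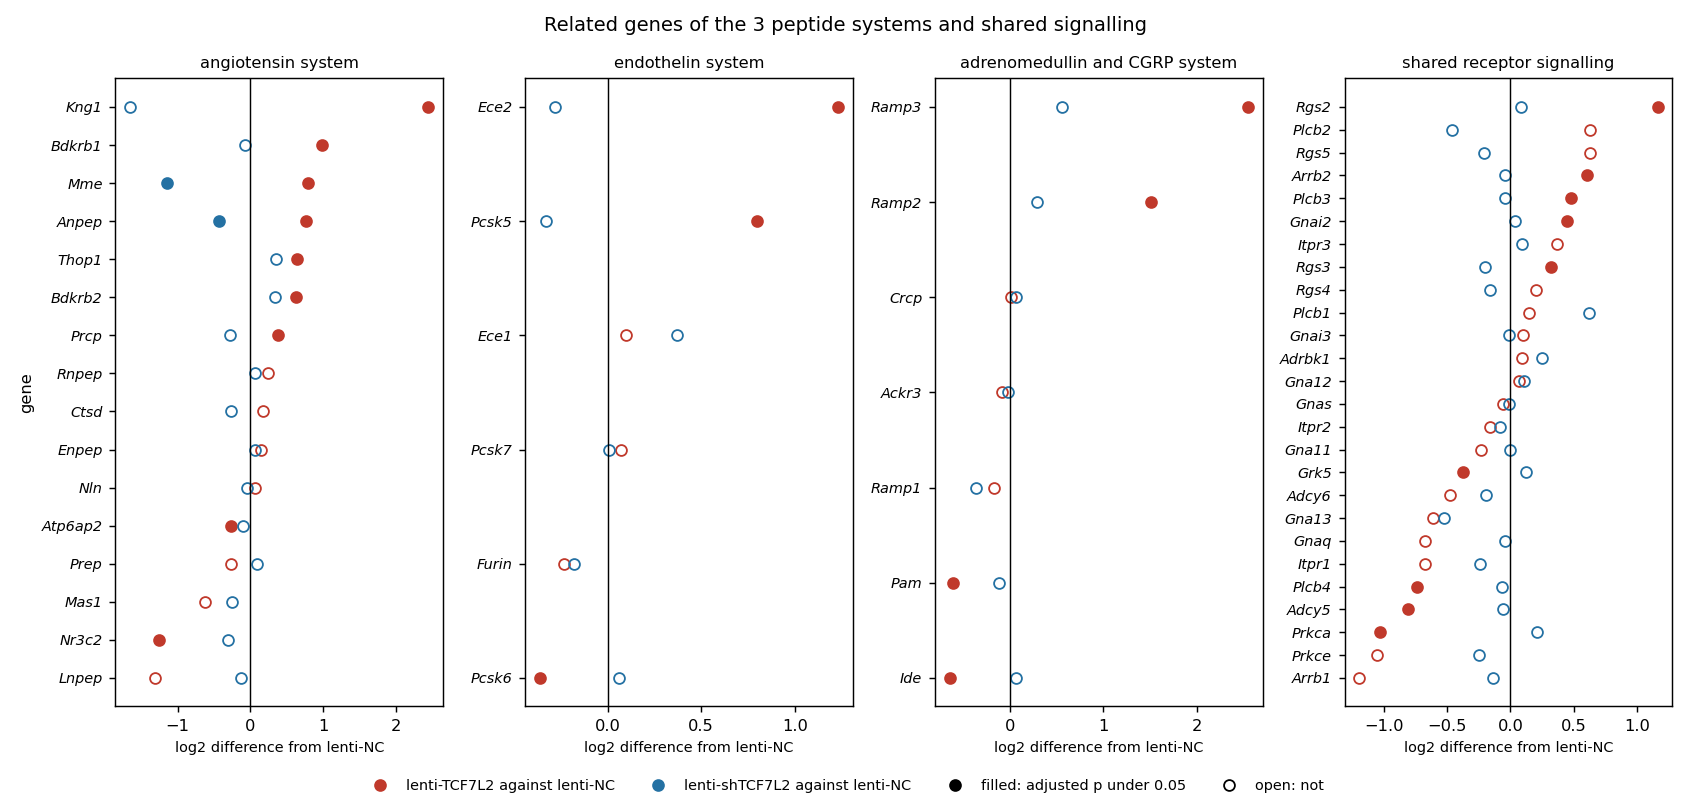
Log2 difference from lenti-NC (horizontal axis) of the tested related genes reported here, 1 panel per list, with lenti-TCF7L2 and lenti-shTCF7L2 in different colours; filled points passed an adjusted p under 0.05, open points did not. Ramp3 lies at 2.55 and Nr3c2 at -1.25 for lenti-TCF7L2, and Mme lies on opposite sides of 0 for the viruses (0.79 and -1.14).

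By the same call, an adjusted p under 0.05, 6 of 10 members were called for lenti-TCF7L2 against lenti-NC, 5 higher (Agt, Agtr1a, Ednrb, Adm, Adm2) and 1 lower (Ednra), where 31.8% of all tested genes were called, 18.0% higher and 13.8% lower. For lenti-shTCF7L2 against lenti-NC 5 were called, Adm2 higher and Agt, Agtr1a, Edn1 and Adm lower, where 3.64% of all tested genes were called, 1.32% higher and 2.32% lower. Between lenti-TCF7L2 and lenti-shTCF7L2 7 were called, 6 higher and Ednra lower, where 33.1% of all were, 18.4% higher and 14.7% lower. The background itself depends on lenti-TCF7L2 replicate 3: for lenti-shTCF7L2 against lenti-NC 428 genes were called with it and 2056 without it. Groups did not overlap for 5 members with lenti-TCF7L2 against lenti-NC, 4 higher and 1 lower, where 46.8% of all tested genes were so, 24.9% higher and 22.0% lower. They did not overlap for 8 members with lenti-shTCF7L2 against lenti-NC, 1 higher and 7 lower, where 40.9% of all were so, 19.9% higher and 21.0% lower. Between lenti-TCF7L2 and lenti-shTCF7L2 they did not overlap for 8, 6 higher and 2 lower (Ednra and Adm2), where 47.3% of all were so, 24.1% higher and 23.1% lower. The members were picked with these values known, so nothing is read from the counts. Agt, Agtr1a and Adm were the 3 members whose lenti-TCF7L2 libraries all lay above and whose lenti-shTCF7L2 libraries all lay below every lenti-NC library, a pattern held by 4.95% of all tested genes. No member had the opposite pattern, held by 3.17%.

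Set directly against each other, lenti-TCF7L2 and lenti-shTCF7L2 differed most in Agt, Adm and Agtr1a with all libraries, as given above. Without lenti-TCF7L2 replicate 3, Agt was at 2.56, Ednrb at 1.95, Adm at 1.75 and Agtr1a at 1.70. Ace was 0.91 ± 0.17 and Edn1 0.87 ± 0.12 higher on the log2 scale with lenti-TCF7L2, or 1.87-fold and 1.83-fold, and neither overlapped. Ednrb was 1.57 ± 0.41 higher with all libraries, and Ednra was lower, at -0.76 ± 0.14. Adm2 was lower with lenti-TCF7L2 in every library, at -0.45 ± 0.16, and was not among the calls. Agtrap and Calcrl overlapped, at 0.29 ± 0.12 and -0.44 ± 0.32, or -0.10 for Calcrl without lenti-TCF7L2 replicate 3.

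For each member the pair of other genes with the most similar profile was found among 9686 genes, as the mean absolute difference of log2 CPM over the 9 libraries after centring on the lenti-NC mean. Agt was nearest to Fbln1 and Fmod, 2 genes of extracellular matrix proteins, at 0.121 and 0.154. Agtr1a was nearest to Igf2 and Dcn, at 0.090 and 0.099, and Adm to Dcn and Cpz, at 0.091 and 0.104. Dcn, which encodes the matrix proteoglycan decorin, is also 1 of the 10 fibroblast markers. By mean CPM, Pdgfra, Lum, Tcf21 and Col1a2 of that list had their groups ordered as Dcn did. Others did not: Col1a1 and Col3a1 were higher with both viruses than with lenti-NC, and Postn, Ddr2 and Thy1 lower with both. The part of these markers in the values of the members was not tested.

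Edn1 was nearest to Ugcg and Lpl, at 0.074 and 0.092, Ednra to Cap2 and Cs, at 0.039 and 0.041, and Ednrb to Cd93 and Adamts3, at 0.191 and 0.204. Adm2 had the most distant nearest neighbour of all members, Acot7, at 0.310. Only genes of mean CPM at least 5 were compared, while Adm2 had 3.18, 4.35 and 1.39 CPM with lenti-TCF7L2, lenti-shTCF7L2 and lenti-NC. Agtrap was nearest to Csf1 and Zcchc24, both at 0.046, and Calcrl to Rbl1 and Pds5a, at 0.049 and 0.062. Ace was nearest to Itgb2 and Rgs16, at 0.088 and 0.095.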

How the data were processed

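RNA-seq of 9 libraries was analysed, 3 per group, grouped by their titles. Each library came with 1 deposited table that holds unnormalised expected counts (estimated fragments), FPKM values and gene lengths, per the file headers. The submitters' processing notes name HISAT2, Bowtie2, RSEM 1.3.1, DESeq2 1.4.5 and build rn6, with no roles. Between 84.2% and 84.5% of expected counts were whole as printed; those of Ednra and Adm were fractional in every library, as were nearly all of Agtrap and 1 of Agtr1a. A gene missing from a library was set to 0.

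Expected counts were rounded, filtered with filterByExpr (11761 genes kept, 2846 set aside) and scaled with TMM. All 9 libraries entered 1 fit with group as the only term, tested 2-sided with edgeR 4.0.16 (quasi-likelihood) in R 4.3.3 and adjusted by Benjamini and Hochberg over all tested genes; an adjusted p under 0.05 was called. The groups shared a single spread per gene in this fit, so every SE draws on all groups. The biological coefficient of variation was 14.9%. FPKM values were used as deposited, and CPM was computed with TMM-scaled library sizes.

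The members, the 4 lists of related genes, the markers and the motifs were chosen with earlier results of these data known. Member differences are therefore given without p-values. Related genes are named where called in any comparison, or, in a list with none called, by mean CPM; other related genes and markers that the text names were chosen after their values were seen; nearest profiles are the 2 closest of mean CPM at least 5. Alternatives were RLE scaling, no filter, DESeq2 1.42.0, limma 3.58.1 on log2(FPKM + 1) and log2(FPKM + 0.1), a replicate block, only the 6 libraries compared, an adjustment for gene length and leaving out each library. The script was tested on simulated data. Promoters of build GRCr8 are used for sequence only and joined by symbol. Some genes of the lists count toward the totals given but are not reported here.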

Additional observations from a re-analysis of the deposited data

How the results depend on the processing

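Over all members and alternatives, 504 log2 differences stayed within the spread between replicates and no called value changed sign. The other 6 moved (Adm2, Agt and Edn1, on log2(FPKM + 1) or after length adjustment). That spread was the SD between replicates of the groups compared. Leaving out 1 of 3 libraries can hardly move a group mean past it, so this count does not test those settings. Calcrl for lenti-TCF7L2 against lenti-NC, at -0.66 to 0.03 over all settings, counted as within it. Of the values of the 31 related genes called in any comparison, 1453 kept their call, 27 gained and 82 lost it, and none reversed. Genes called for lenti-TCF7L2 against lenti-NC numbered 3741, but 2321 with only the 6 libraries compared and 2430 to 5503 leaving out 1 library each. For lenti-shTCF7L2 against lenti-NC they numbered 428, but 645 with DESeq2, 3294 with only the 6 libraries compared, 979 after length adjustment and 88 to 2056 leaving out 1 library each, 2056 being the value without lenti-TCF7L2 replicate 3. For lenti-TCF7L2 against lenti-shTCF7L2 the 3890 calls became 2649 to 5405. Related genes called for lenti-shTCF7L2 against lenti-NC were 2, but 24 with only the 6 libraries compared, 5 after length adjustment and 1 to 16 leaving out 1 library each, 16 without lenti-TCF7L2 replicate 3; the 26 and 28 calls of the other comparisons became 20 to 39 and 23 to 34. The members called were 5 to 8, 4 to 6 and 6 to 8 across left-out libraries in the 3 comparisons as listed. The cause of these moves was not tested.

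Replicate numbers were shared across groups, but same-numbered libraries did not deviate together: of 9 pairs, 2 correlated above 0.1, from -0.0674 to 0.151, and 3 of 9 libraries correlated best with their own number. With the replicate block the lenti-shTCF7L2 calls against lenti-NC were 244. Depth limits Adm2, Calcrl and Ednrb most among the members, and leaves Agtr2 and Edn2 near the floor.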
